A study of Mus musculus with 34 samples.

Results

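The genes described here are the classical axon guidance ligands and receptors of the mouse: the semaphorins and their plexin receptors, the ephrins and Eph receptors, the Slits and Robo receptors, and the netrins and Unc5 receptors. They were chosen by gene symbol, with no use of measured values, and 66 of the 29876 gene entries of the expression table matched: 20 semaphorins, 9 plexins, 8 ephrins, 14 Eph receptors, 3 Slits with 4 Robos, and 4 netrins with 4 Unc5 receptors. RNA came from mouse cells (129Sv alleles on a C57BL/6N background, per the labels) with a changed copy number of 7qF3, the counterpart of the human 16p11.2 locus. Deletion cells were df/+, with 1 chromosome lacking the interval. Duplication-deletion cells were df/dp, with the interval duplicated on 1 chromosome and missing from the other. Control cells were +/+. Each genotype was sampled as embryonic stem cells (ESCs), as neuronal progenitor cells (NPCs) committed to the ventral midbrain lineage at day 5 of differentiation, and as immature dopaminergic neurons at day 16, after passage through epiblast stem cells. Deletion, duplication-deletion and control libraries numbered 3, 3 and 3 in ESCs, 3, 3 and 5 in NPCs, and 2, 2 and 4 in neurons, 28 in all. The labels do not say how many cell lines stand behind each genotype or whether replicates were separate cultures, so every p-value here reflects how far libraries of a group lie apart, a spread that may be technical.

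Growing axons find their way by reading cues on other cells and in the matrix. Secreted cues such as netrins, Slits and class 3 semaphorins act over a distance, whereas ephrins and the membrane-bound semaphorins act on contact, and each is read by its own receptors, which steer the cytoskeleton of the growth cone. In the ventral midbrain, floor plate cells release netrin and Slit proteins, and dopaminergic axons carry receptors for them. Many of the same proteins also act outside the nervous system, for instance in blood vessels and epithelia.

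Library depth ran from 5578151 to 78814037 counts, of which the 66 genes together held 2971 to 25488 in ESCs, 40770 to 209417 in NPCs and 111713 to 235762 in neurons. Levels are given as CPM, the count divided by a library size scaled with TMM, and are compared between samples and never between genes, since no gene length enters them. Genes of the 7qF3 interval were at a median of 31.4% to 68.7% of the control mean in the 8 deletion libraries and of 62.3% to 122% in the 8 duplication-deletion libraries, against 77.4% to 132% in the 12 control libraries. In NPCs the library labelled duplication-deletion replicate 2 was at 62.3%, below deletion replicate 5 at 68.7%, whereas duplication-deletion replicates 4 and 5 were at 112% and 106%. The title and genotype labels of these 3 NPC libraries give duplication-deletion, while their description names the deletion alone, and the first were used. The 8 pluripotency markers summed to at least 1600 CPM in every ESC library and to at most 5.47 CPM in NPCs and neurons, and all 8 ventral midbrain progenitor markers, Shh and Foxa2 among them, were detected at a mean of at least 1 CPM in NPCs. Neurons held 8 of 8 dopaminergic markers, at summed levels of 190 to 238 CPM in deletion, 445 to 1120 CPM in duplication-deletion and 524 to 672 CPM in control libraries. Neuron libraries also held RNA of markers listed for other cells: 6 neural crest and mesenchyme markers, Col3a1 above all, summed to 440 to 1360 CPM, and 7 astrocyte markers to 438 to 988 CPM. The same astrocyte list summed to 100 to 188 CPM in ESCs and 194 to 382 CPM in NPCs, so its RNA was not confined to neuron libraries. In such bulk samples fewer cells of a type and less RNA per cell cannot be told apart. NPC replicate 4 stood apart in the control and in the duplication-deletion group and is described on its own after the stages.

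Promoter windows from 250 bases before to 50 after the annotated start were taken from RefSeq (build GRCm38.p6), which held 73 windows for 57 of the 66 genes. The GC box, the letters GGGCGG on either strand, was present in 51 of the 73 windows (69.9%), against 35.7% of all 32851 mouse windows of the same length. TATAAA on either strand was present in 2.74% of the members' windows, against 13.6% of all. The E-box CAGCTG, which reads the same on both strands, was present in 16.4%, against 16.3% of all, and the median number of CpG dinucleotides per window was 19, against 7. Matches to such short motifs describe the letters only. The windows printed here were picked after the values were seen, for members on which the results turn: Epha5 and Unc5c between the stages and, by value, between genotypes, Slit2 between stages and between NPC libraries, and Plxnb3, which was listed at 0 in most NPC libraries. Capitals mark GC boxes.
Epha5: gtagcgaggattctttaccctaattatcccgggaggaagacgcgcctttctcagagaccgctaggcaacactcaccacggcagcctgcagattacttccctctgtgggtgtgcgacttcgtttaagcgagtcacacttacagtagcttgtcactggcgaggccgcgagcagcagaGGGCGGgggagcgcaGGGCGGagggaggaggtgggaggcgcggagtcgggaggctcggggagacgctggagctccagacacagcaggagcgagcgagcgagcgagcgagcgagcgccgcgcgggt
Unc5c: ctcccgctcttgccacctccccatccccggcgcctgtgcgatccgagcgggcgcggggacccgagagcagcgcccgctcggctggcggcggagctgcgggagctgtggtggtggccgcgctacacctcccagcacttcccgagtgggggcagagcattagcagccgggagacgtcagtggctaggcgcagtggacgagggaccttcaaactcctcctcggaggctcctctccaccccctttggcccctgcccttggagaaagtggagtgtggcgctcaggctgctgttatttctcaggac
Slit2: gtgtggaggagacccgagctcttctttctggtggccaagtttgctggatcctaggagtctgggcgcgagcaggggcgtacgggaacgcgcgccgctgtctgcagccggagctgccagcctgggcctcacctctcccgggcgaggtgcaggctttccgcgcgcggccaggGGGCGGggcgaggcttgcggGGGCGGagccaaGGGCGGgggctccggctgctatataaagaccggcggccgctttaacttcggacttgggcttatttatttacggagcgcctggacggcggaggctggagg
Plxnb3: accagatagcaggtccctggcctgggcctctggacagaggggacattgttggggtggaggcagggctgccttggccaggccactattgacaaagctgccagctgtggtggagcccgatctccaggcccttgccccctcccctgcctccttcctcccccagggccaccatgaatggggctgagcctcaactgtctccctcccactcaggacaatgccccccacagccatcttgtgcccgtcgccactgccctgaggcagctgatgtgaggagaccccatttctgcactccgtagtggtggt
The Epha5 window lies at chr5:84417333-84417632 on the minus strand and holds 30 CpG and 2 GC boxes. Unc5c lies at chr3:141465314-141465613 on the plus strand, with 24 CpG and no GC box. Slit2 lies at chr5:47982905-47983204 on the plus strand and holds 30 CpG, 3 GC boxes and 1 TATAAA match. The Plxnb3 window at chrX:73756853-73757152, plus strand, holds 4 CpG, no GC box and 2 CAGCTG matches. In the mm9 coordinates of the authors' deposited table the genes span 84483788 to 84846407 of chromosome 5 (Epha5), 141128528 to 141497886 of chromosome 3 (Unc5c), 48374394 to 48697017 of chromosome 5 (Slit2) and 71002399 to 71017849 of chromosome X (Plxnb3).

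**Figure D1:**
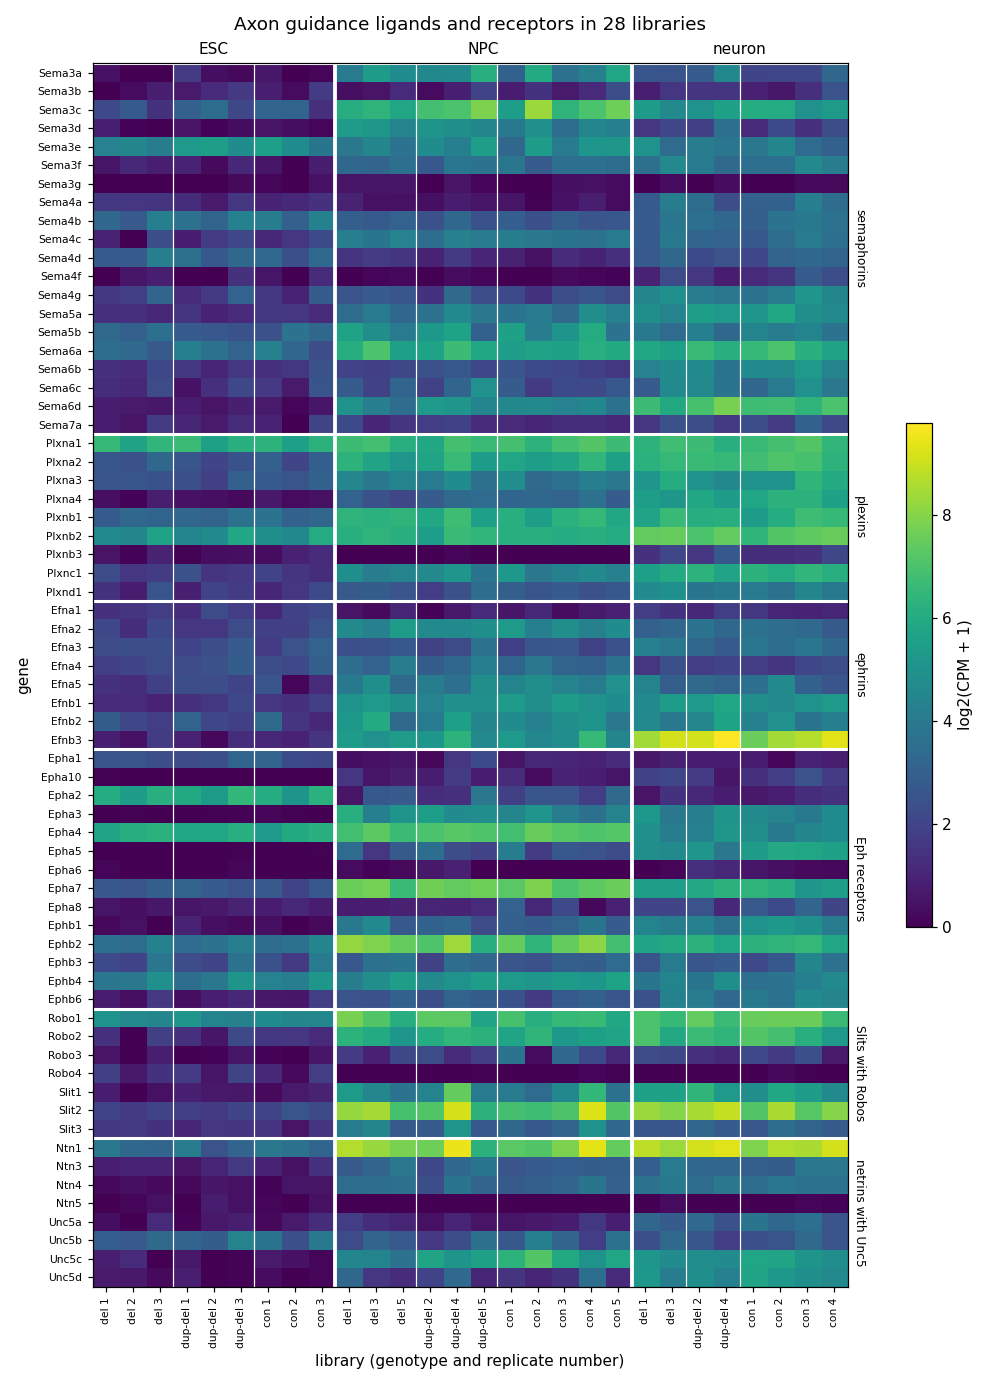
Level of the 66 guidance genes (rows, by family) in the 28 libraries (columns, by stage, with deletion, duplication-deletion and control side by side), as log2(CPM + 1). Control ESCs have the lowest summed level in every family, control NPCs and neurons overlap in the summed level of semaphorins, of Slits with Robos and of netrins with Unc5, and replicate 4 of the NPC control and duplication-deletion groups is bright for Slit1, Slit2, Slit3 and Ntn1.

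Control cells gained guidance gene RNA as they left the stem cell state. The 66 genes together had 359 to 574 CPM in control ESCs, 1940 to 3340 CPM in control NPCs and 2400 to 3200 CPM in control neurons. Of the 64 members tested between stages, 48 passed an adjusted p of 0.05 between NPCs and ESCs, 41 higher and 7 lower in NPCs (edgeR's quasi-likelihood test with Benjamini-Hochberg adjustment). DESeq2 called 51. The edgeR background was 41.5% of all 18365 genes tested, 21% higher and 20.5% lower, and that of DESeq2 42.8%. Libraries of NPCs and ESCs did not overlap for 46 members (background 42.7%). The members' median log2 fold change, NPC over ESC, was 2.42, against 0.01 for all genes. Between neurons and NPCs 36 of 64 passed, 26 higher and 10 lower in neurons, on a background of 43.7%, 23.2% higher and 20.5% lower, and DESeq2 called 39 on a background of 43.8%. Libraries of neurons and NPCs did not overlap for 31 members (background 38.9%). The median log2 fold change, neuron over NPC, was 0.72 for the members and 0.10 for all genes. With the RLE scaling in place of TMM these medians were 0.83 for the members and 0.22 for all genes. Without NPC control replicate 4 the members called numbered 47 and 39. Both comparisons use the same NPC control libraries, so they are given side by side and not as independent of each other. Ntn5 and Robo4 were below the count filter in these comparisons. The same edgeR backgrounds, by direction, apply to the counts by family that follow, which rest on few genes each.

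Among semaphorins, secreted and membrane-bound cues that mostly repel axons, 9 were higher and 3 lower in NPCs than in ESCs, of 20 tested, and 9 were higher and 3 lower in neurons than in NPCs. Sema3d and Sema3a, secreted members of class 3, were highest in NPCs. Sema3d had 0.413, 0.291 and 0.13 CPM in ESCs, 14.6, 28.9, 10.2, 21.5 and 17.7 CPM in NPCs and at most 4 CPM in neurons. No NPC library overlapped with those of the other stages, and the log2 fold change was 5.98 ± 0.636 (SE) for NPCs over ESCs and -2.81 ± 0.460 for neurons over NPCs (edgeR adjusted p = 7.62e-06 and 2.49e-04). Sema3a, a repellent read by neuropilin and class A plexins, had less than 1 CPM in every ESC library, 7.19, 61.8, 11.6, 18.2 and 54.8 CPM in NPCs and 3.12, 3.21, 3.38 and 8.93 CPM in neurons. Its log2 fold change was 6.94 ± 1.11 for NPCs over ESCs (edgeR adjusted p = 2.30e-04), and it was 9.06 without ESC control replicate 1, 6.32 without ESC control replicate 2 and 6.16 with a replicate block. For neurons over NPCs it was -2.69 ± 0.754 (edgeR adjusted p = 0.0103), with libraries that overlapped. Sema3e, the ligand of Plxnd1 and outside the rule for named members, had 12.8 to 45.2 CPM in ESCs, 8.38 to 40 CPM in NPCs and 7.24 to 21.3 CPM in neurons and passed in neither comparison.

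Several membrane-bound semaphorins of classes 4 and 6 were higher in neurons than in NPCs. Sema6d, a transmembrane ligand of class A plexins, had 0.117 to 0.62 CPM in ESCs, 11.5 to 24.1 CPM in NPCs and 80.4 to 129 CPM in neurons. It rose at each step, by a log2 fold change of 5.56 ± 0.460 for NPCs over ESCs and 2.44 ± 0.307 for neurons over NPCs (edgeR adjusted p = 1.01e-06 and 2.95e-05). Sema4d, the ligand of Plxnb1, had 9.24, 4.31 and 9.25 CPM in ESCs, 0.962, 0.347, 1.34, 0.985 and 1.58 CPM in NPCs and 3.22, 7.61, 8.87 and 7.96 CPM in neurons. Its low point was thus in NPCs, where it was lower than in ESCs by a log2 fold change of -2.88 ± 0.490 and below the neurons, whose log2 fold change over NPCs was 2.76 ± 0.467 (edgeR adjusted p = 3.65e-04 and 3.24e-04). Sema4a was also lowest in NPCs, at 0.955 to 1.65 CPM in ESCs, 0.052 to 0.788 CPM in NPCs and 6.98, 7.14, 17.4 and 10.2 CPM in neurons. The log2 fold change of Sema4a for neurons over NPCs was 4.80 ± 0.614 (edgeR adjusted p = 3.31e-05). Sema4b, also of class 4, was lower in NPCs than in ESCs by a log2 fold change of -1.34 ± 0.341 (edgeR adjusted p = 0.00621). Sema6b, a ligand of Plxna4, had 1.5 to 4.34 CPM in ESCs and 1.97 to 5.03 CPM in NPCs, which overlap, and 20.1 to 37.5 CPM in neurons, a log2 fold change over NPCs of 3.03 ± 0.363 (edgeR adjusted p = 1.89e-05).

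Plexins, the semaphorin receptors, moved upward at both steps. Of 9 tested, 8 were higher and 1 lower in NPCs than in ESCs, and 7 were higher and none lower in neurons than in NPCs. Plxna4, which reads Sema3a together with neuropilin, had 0.594, 0.204 and 0.347 CPM in ESCs, 8.11, 8.58, 7.61, 11.4 and 6.17 CPM in NPCs and 53.3, 78, 77.5 and 47 CPM in neurons. The 3 stages did not overlap, and the log2 fold changes were 4.41 ± 0.387 for NPCs over ESCs and 2.97 ± 0.278 for neurons over NPCs (edgeR adjusted p = 1.67e-06 and 2.27e-06). Plxnc1, the receptor of Sema7a, rose by 3.38 ± 0.365 and then by 1.77 ± 0.282 on the log2 scale (edgeR adjusted p = 8.68e-06 and 1.98e-04). Plxna2 rose by 3.32 ± 0.342 in NPCs over ESCs (edgeR adjusted p = 6.03e-06), and Plxna3 by 1.75 ± 0.344 in neurons over NPCs (edgeR adjusted p = 0.00102). Plxnb3, a receptor of Sema5a named here after its values were seen, had 0.258, 0.845 and 1.3 CPM in ESCs, was listed at 0 in all 5 NPC libraries, and had 1.44, 1.46, 1.64 and 3.22 CPM in neurons. Against a floor of 3 counts over the NPC group, its level was at least 74.0-fold lower in NPCs than in ESCs and at least 179-fold higher in neurons than in NPCs. It passed in both comparisons (edgeR adjusted p = 1.97e-04 and 7.06e-05).

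**Figure D2:**
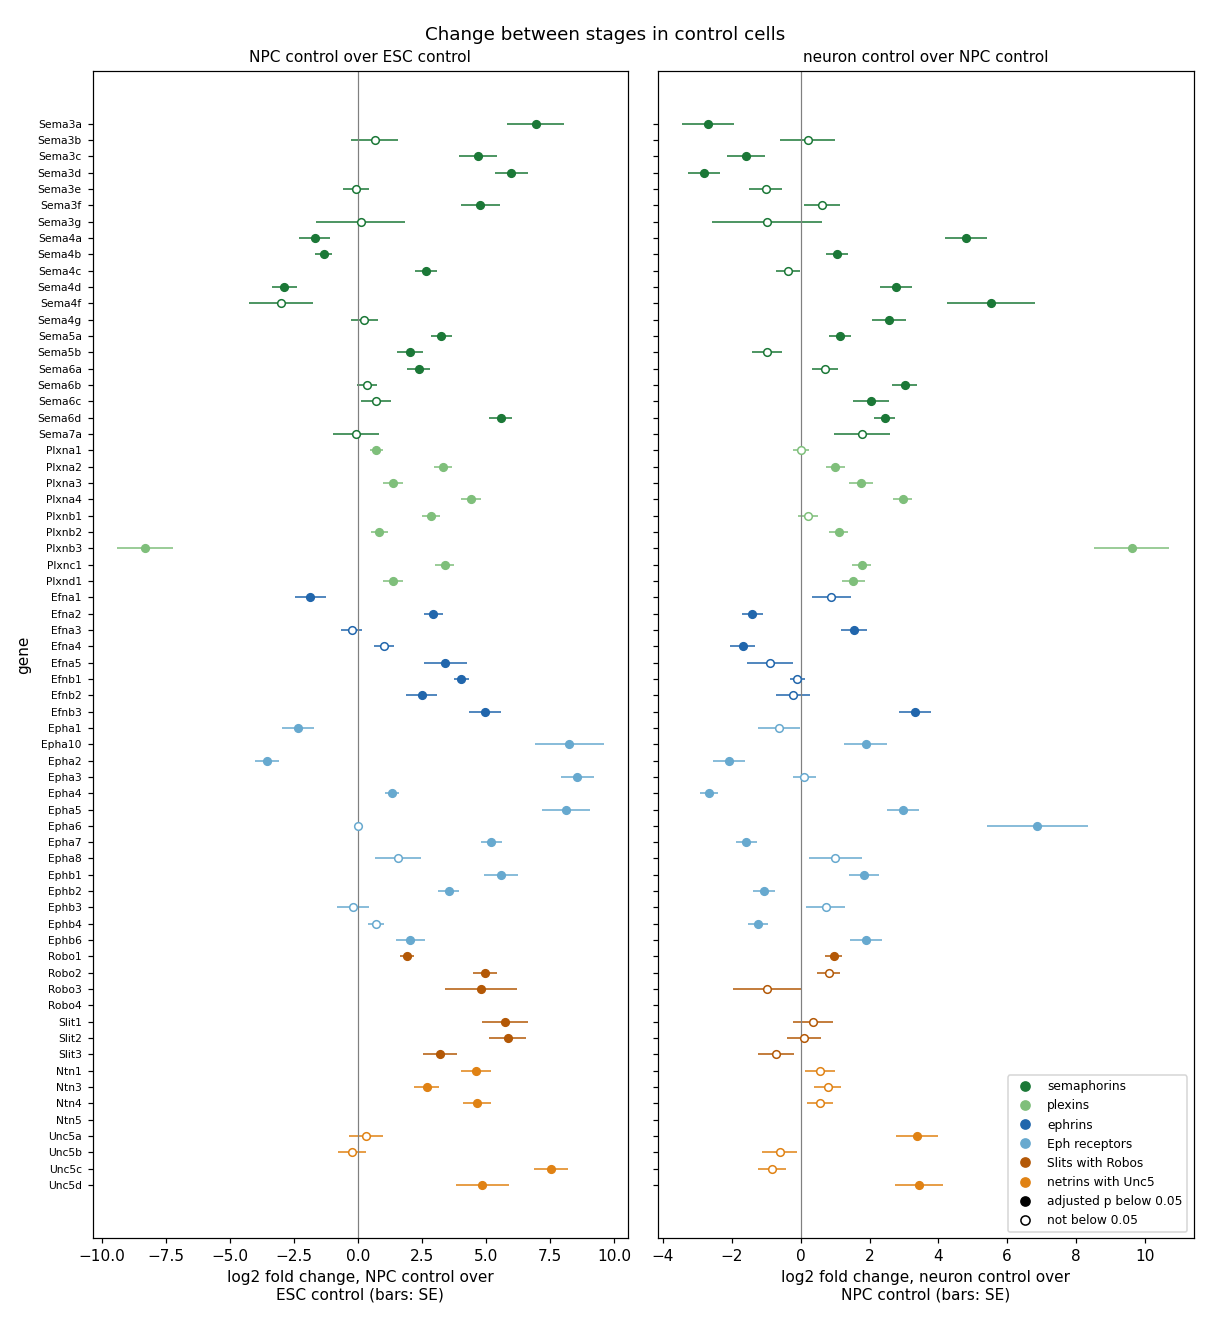
Log2 fold change with SE of each guidance gene tested, NPC control over ESC control (left) and neuron control over NPC control (right), with filled points where the edgeR adjusted p was below 0.05. In the left panel 41 filled points lie right of 0 and 7 left of it, in the right panel 26 and 10. Plxnb3, Epha6 and Epha10 rest on a group listed at 0, where the fitted value is no bound.

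Ephrins are membrane-anchored ligands. Of 8, 5 were higher and 1 lower in NPCs than in ESCs, and 2 were higher and 2 lower in neurons than in NPCs. Efnb3, a midline barrier for crossing axons, had 1.19, 0.991 and 1.74 CPM in ESCs, 37.7, 22.3, 27.1, 93.9 and 21.3 CPM in NPCs and 189, 348, 411 and 646 CPM in neurons. Each stage lay above the one before it with no overlap, by log2 fold changes of 4.95 ± 0.628 and 3.33 ± 0.462 (edgeR adjusted p = 3.36e-05 and 6.53e-05). Efnb1, a transmembrane ligand of EphB receptors, had 1.57 to 2.52 CPM in ESCs, 26.1 to 40.8 CPM in NPCs and 23.5 to 38.6 CPM in neurons, with a rise of 4.02 ± 0.296 on the log2 scale at the first step (edgeR adjusted p = 4.21e-07) and -0.10 ± 0.220 at the second (edgeR adjusted p = 0.741). Efna5, a repellent of topographic maps, had 4.91, 0.117 and 1.26 CPM in ESCs and 20.5, 27.6, 19.6, 15.2 and 30.2 CPM in NPCs. Its log2 fold change of 3.40 ± 0.846 (edgeR adjusted p = 0.00529) was 5.09 without ESC control replicate 1. Efna2 and Efna4, GPI-anchored ligands of EphA receptors, fell in neurons relative to NPCs by 1.41 and 1.69 on the log2 scale, whereas Efna3 rose by 1.55 (edgeR adjusted p = 0.00211, 0.00181 and 0.00370). The expected counts of Efna3 and Efna4 were not whole in 19 of 28 libraries each, so part of their reads was shared out among genes by estimate.

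Eph receptors divided by stage. Of 14, 8 were higher and 2 lower in NPCs than in ESCs, and 5 were higher and 5 lower in neurons than in NPCs. Epha5, a receptor of ephrin-A ligands on midbrain dopaminergic and retinal axons, had 2 counts over the 3 ESC libraries, 16.4, 2.24, 5.49, 4.65 and 3.82 CPM in NPCs and 40.5, 58.7, 54.7 and 47.5 CPM in neurons. With counts and library sizes pooled over each group, the ratio of NPCs to ESCs was 372, with a 95% interval from counting error alone of 103 to 3070. NPC control replicate 1 held 1346 of the Epha5 counts, and control replicates 2 to 5 held 129, 331, 236 and 99. The fitted log2 fold change of 8.11 was 7.51 without ESC control replicate 2 and 7.41 without NPC control replicate 1, and the log2 fold change of neurons over NPCs was 2.98 ± 0.469 (edgeR adjusted p = 1.87e-04), or 3.66 without NPC control replicate 1. Epha3, another ephrin-A receptor, had 0.103, 0.0291 and 0 CPM in ESCs, 11.2 to 33 CPM in NPCs and 14.6 to 26.3 CPM in neurons. Its rise came at the first step, with a log2 fold change of 8.56 ± 0.642 (edgeR adjusted p = 4.73e-07), which was 9.99 without ESC control replicate 1. Ephb1, which steers uncrossed retinal axons, rose by 5.58 ± 0.678 and then by 1.85 ± 0.437 on the log2 scale (edgeR adjusted p = 2.36e-05 and 0.00358). The first of these was 6.71 without ESC control replicate 1 and 4.96 without ESC control replicate 2. Epha10, a kinase-inactive receptor named here after its values were seen, had 0 counts in control ESCs and was at least 24.3-fold higher in NPCs.

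Other Eph receptors were highest before the neuronal stage. Epha2, the receptor of the group best known from epithelia, had 65, 32.3 and 75.3 CPM in ESCs, 2.63, 5.11, 5.04, 2.48 and 9.45 CPM in NPCs and 0.602, 0.773, 1.43 and 1.73 CPM in neurons. It fell at the first step by 3.56 ± 0.465 on the log2 scale (edgeR adjusted p = 4.36e-05). Epha4, which binds ephrins of both classes, had 38.1, 60.2 and 73.3 CPM in ESCs, 113, 180, 151, 134 and 148 CPM in NPCs and 27.2, 14.4, 21.8 and 25.9 CPM in neurons. NPCs lay above both other stages with no overlap, by log2 fold changes of 1.33 ± 0.269 for NPCs over ESCs and -2.67 ± 0.256 for neurons over NPCs (edgeR adjusted p = 0.00132 and 2.77e-06). Epha7 fell by 1.58 ± 0.296 and Ephb4, the venous receptor of Efnb2, by 1.24 ± 0.286 in neurons relative to NPCs (edgeR adjusted p = 7.29e-04 and 0.00317). Ephb6, whose kinase domain is inactive, rose by 1.91 ± 0.465 (edgeR adjusted p = 0.00443). Epha6 was listed at 0 in every control ESC and NPC library and had 0.516, 0.305, 0.176 and 0.16 CPM in control neurons, at least 26.7-fold above NPCs by the floor of 3 counts.

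Slits are secreted midline repellents and Robos their receptors. All 6 tested were higher in NPCs than in ESCs, and 1 was higher and none lower in neurons than in NPCs, namely Robo1. Slit2 had 3.1, 4.75 and 3.52 CPM in ESCs, 117, 107, 131, 600 and 142 CPM in NPCs and 140, 370, 151 and 257 CPM in neurons. Its log2 fold change was 5.84 ± 0.726 for NPCs over ESCs (edgeR adjusted p = 2.85e-05), or 5.05 without NPC control replicate 4, and 0.10 ± 0.491 for neurons over NPCs (edgeR adjusted p = 0.896). Slit1 had 0.181 to 0.912 CPM in ESCs, 15.6, 9.79, 22.6, 88.9 and 11.7 CPM in NPCs and 24 to 56.6 CPM in neurons. Its log2 fold change of 5.74 ± 0.902 for NPCs over ESCs (edgeR adjusted p = 1.97e-04) was 4.79 without NPC control replicate 4. Robo2 rose by 4.95 ± 0.484 on the log2 scale in NPCs over ESCs (edgeR adjusted p = 3.93e-06). Robo1 and Robo2 have the same position in the authors' deposited table, and their expected counts were not whole in 26 and 24 of 28 libraries, so the division of reads between them is uncertain. Their summed level was 22.9 to 28.2 CPM in ESCs, 109 to 172 CPM in NPCs and 139 to 326 CPM in neurons. The summed expected counts were themselves not whole in 20 of 28 libraries, so part of these reads was also shared out with other entries by estimate. Robo4, the endothelial member, had 0.175 to 2.39 CPM in ESCs and at most 0.142 CPM later.

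Netrins attract or repel axons according to the receptor, and Unc5 receptors mediate repulsion. Of 7 tested, 5 were higher and none lower in NPCs than in ESCs, and 2 were higher and none lower in neurons than in NPCs. Ntn1, the floor plate netrin, had 13.7, 11.5 and 8.25 CPM in ESCs, 155, 141, 232, 670 and 176 CPM in NPCs and 235, 408, 370 and 576 CPM in neurons. It rose by 4.60 ± 0.590 on the log2 scale in NPCs over ESCs (edgeR adjusted p = 3.66e-05), or by 3.99 without NPC control replicate 4. Ntn4, a netrin of basement membranes, rose by 4.65 ± 0.544 (edgeR adjusted p = 1.69e-05). The Unc5 receptors split between the stages. Unc5c had 0.62, 0.408 and 0.0868 CPM in ESCs, 80.1, 143, 60.7, 31.9 and 53 CPM in NPCs and 52.6, 51.2, 32.6 and 26.7 CPM in neurons, a rise of 7.53 ± 0.678 on the log2 scale at the first step (edgeR adjusted p = 2.09e-06). Unc5a had 0.155 to 1.43 CPM in ESCs and 0.475 to 1.99 CPM in NPCs, which overlap, and 12.5, 8.6, 11 and 4.77 CPM in neurons, 3.38 ± 0.608 above NPCs (log2, edgeR adjusted p = 5.18e-04). Unc5d had 1.86, 1.01, 1.72, 10.7 and 1.27 CPM in NPCs and 51.8, 35.9, 28.5 and 24.1 CPM in neurons. Its log2 fold change of 3.43 ± 0.693 (edgeR adjusted p = 0.00124) was 4.59 without NPC control replicate 4.

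**Figure D3:**
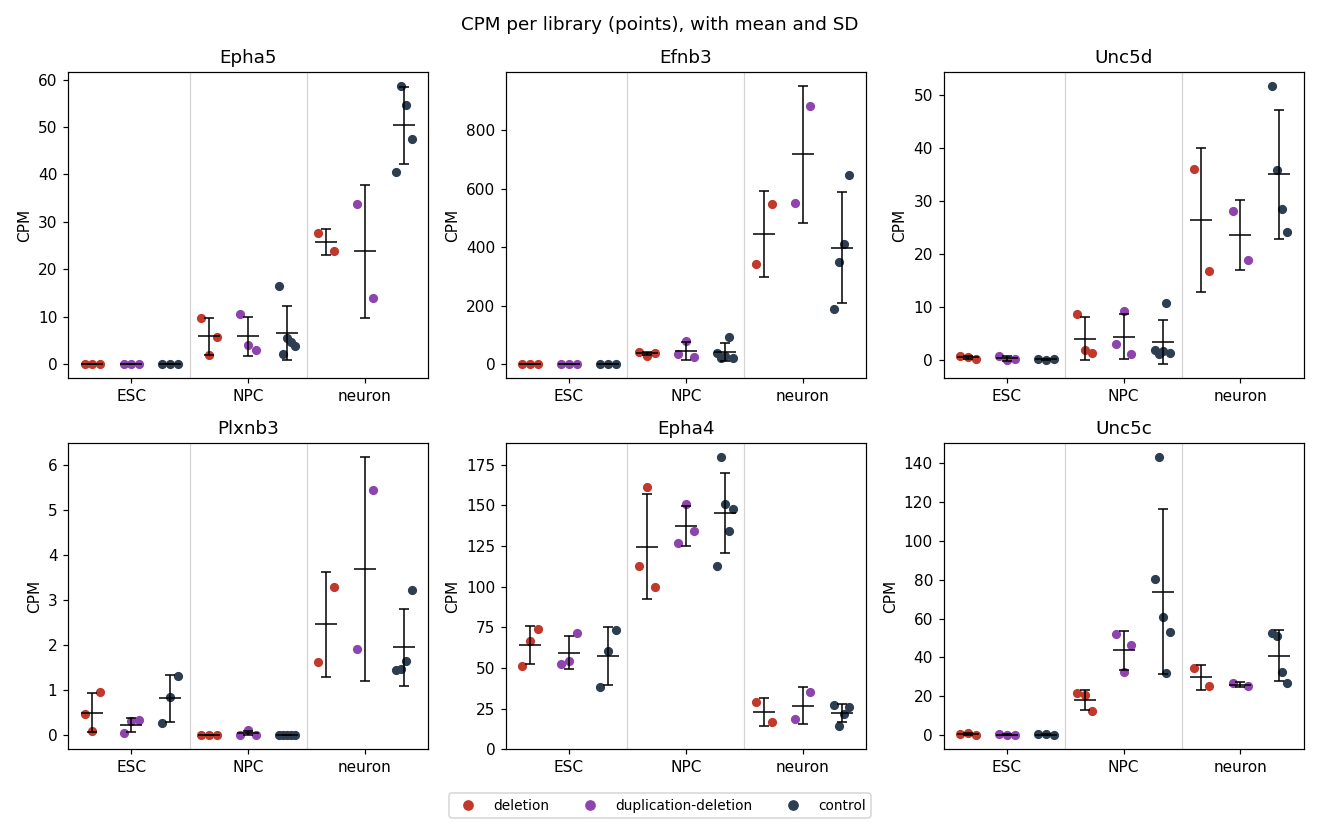
CPM of 6 members in every library (points), with the mean and SD of each group, in ESCs, NPCs and neurons, with deletion, duplication-deletion and control from left to right within a stage. Epha5, Efnb3 and Unc5d are highest in neurons and Epha4 in NPCs, and Unc5c lies at 12.3 to 21.7 CPM in NPC deletion libraries, against 31.9 to 143 CPM in NPC controls.

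Other genes of guidance signalling were taken from lists drawn up with earlier results known. The background for their counts was 21% higher and 20.5% lower of all 18365 genes for NPCs over ESCs. For neurons over NPCs it was 23.2% higher and 20.5% lower. Of 22 co-receptors and further receptors, 17 were higher and none lower in NPCs than in ESCs, and 9 were higher and 4 lower in neurons than in NPCs. Cntn1, an adhesion molecule of axons, had 0.462 ± 0.290 CPM in ESCs, 24.7 ± 10.2 CPM in NPCs and 335 ± 73.8 CPM in neurons (SD, n = 3, 5 and 4). L1cam, which accompanies neuropilin, had 136 ± 32.6 CPM in neurons and 9.84 ± 5.19 CPM in NPCs, and Dscam, a netrin receptor, had 70.6 ± 26.6 CPM in neurons and 4.89 ± 2.36 CPM in NPCs. Of 15 other cues tested, 12 were higher and none lower in NPCs than in ESCs, and 7 were higher and 4 lower in neurons than in NPCs. Wnt5a, a cue for midbrain axons, had 77.2 ± 36.8 CPM in NPCs and 1.92 ± 0.513 CPM in ESCs, and Nell2, a ligand of Robo3, had 96.4 ± 25.9 CPM in neurons and 18.7 ± 7.12 CPM in NPCs. Of 47 intracellular effectors, 25 were higher and 4 lower in NPCs than in ESCs, and 20 were higher and 4 lower in neurons than in NPCs. Dpysl3, a collapsin response mediator, rose at both steps, and Ablim3, an actin-binding protein, had 72.8 ± 21.6 CPM in neurons and 0.185 ± 0.206 CPM in NPCs.

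NPC replicate 4 was rich in Ntn1 and the 3 Slits in both groups that hold one, but not in Ntn3, which had 8.62 CPM in duplication-deletion replicate 4 and 12.9 CPM in replicate 5, and 6.34 CPM in control replicate 4 and 4.91 to 6.71 CPM in the other controls. Replicate 4 held the highest level of its group in 36 of 62 tested members among the 3 duplication-deletion libraries and in 23 of 62 among the 5 control libraries, or 58.1% and 37.1% of members, against 30.5% and 23.5% of all genes tested. Slit2 had 572 CPM in duplication-deletion replicate 4 and 139 and 77.9 CPM in replicates 2 and 5, and 600 CPM in control replicate 4, against 107 to 142 CPM in the other 4 controls. Ntn1 had 732 CPM in duplication-deletion replicate 4 and 199 and 76.5 CPM in replicates 2 and 5, and 670 CPM in control replicate 4, against 141 to 232 CPM in the other controls. Deletion replicates 1, 3 and 5 had 302, 350 and 122 CPM of Slit2 and 404, 307 and 225 CPM of Ntn1, all below both replicates 4. Slit1 had 176 CPM and Slit3 34.1 CPM in duplication-deletion replicate 4, and 88.9 and 31.8 CPM in control replicate 4, above every other library of their groups. The 8 ventral midbrain progenitor markers summed to 459, 446 and 336 CPM in deletion replicates 1, 3 and 5, to 288, 651 and 183 CPM in duplication-deletion replicates 2, 4 and 5, and to 231, 226, 282, 731 and 291 CPM in control replicates 1 to 5. Corin, a floor plate marker, had 102 CPM in duplication-deletion replicate 4 and 7.78 and 11 CPM in replicates 2 and 5, and 61.3 CPM in control replicate 4, against 2.15 to 7.69 CPM in the other controls. The part of these marker levels in the Slit and netrin values was not tested.

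**Figure D4:**
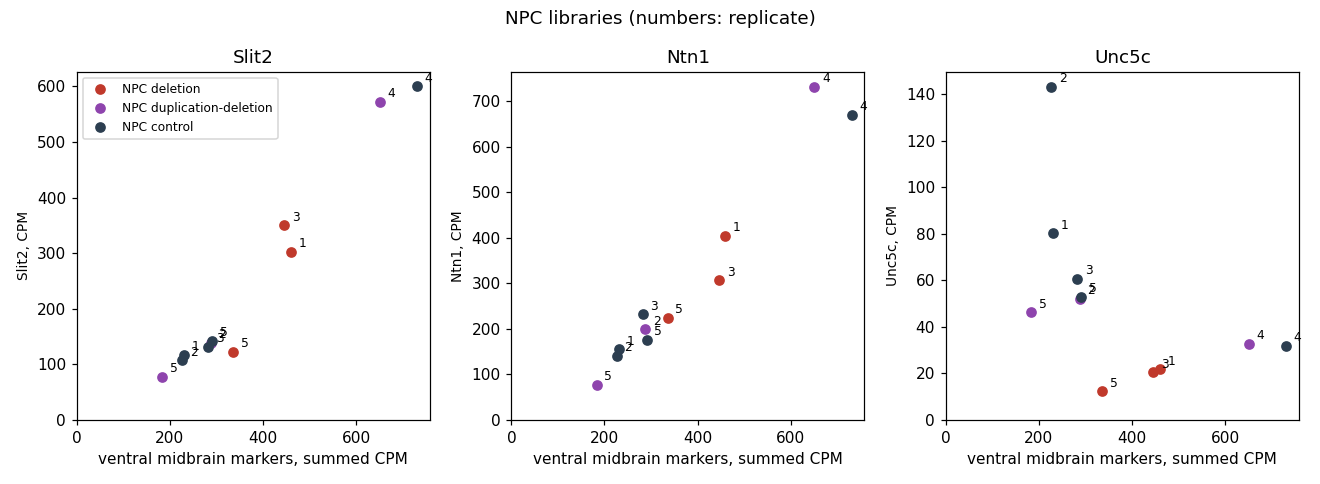
Slit2, Ntn1 and Unc5c (CPM, vertical axes) in the 11 NPC libraries by the summed CPM of 8 ventral midbrain progenitor markers (horizontal axes), with replicate numbers beside the points. Replicate 4 of the duplication-deletion and control groups lies at the upper right for Slit2 and Ntn1, and the 3 deletion libraries lie lowest for Unc5c.

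The genotype comparisons ask whether the copy number of 7qF3 or its arrangement on the chromosomes goes with a change in these genes. In ESCs no member passed in any of 3 comparisons by edgeR, on a background of 0% of 16470 genes, and none of the 61 tested had an unadjusted p below 0.05, against 1.26%, 0.31% and 0.996% of all genes. This fit did not use the pairing of ESC libraries by replicate number, and with a replicate block no member passed either. Deletion replicate 3 was the shallowest library, at 5578151 counts, of which the members held 2971. DESeq2 also called none of the members, on backgrounds of 0.0281% for deletion over control, 0.014% for duplication-deletion over control and 0.0701% for deletion over duplication-deletion. The members' median log2 fold change was -0.18 for deletion over control, 0.04 for duplication-deletion over control and 0.05 for deletion over duplication-deletion, against -0.02, 0.00 and -0.02 for all genes. The libraries of the groups did not overlap for 4 of 61 members between deletion and control (background 6.9%), for none between duplication-deletion and control (2.63%) and for 4 between deletion and duplication-deletion (4.88%). Sema3e had 19.3, 21.7 and 16.1 CPM in deletion and 37.2, 43.2 and 26.4 CPM in duplication-deletion ESCs, and 45.2, 26.3 and 12.8 CPM in control ESCs. It had the smallest p of the ESC comparisons (log2 fold change of deletion over duplication-deletion -0.86 ± 0.415, edgeR adjusted p = 1). Efnb1 had 1.26, 1.25 and 0.935 CPM in deletion and 1.96, 1.57 and 2.52 CPM in control ESCs, a log2 fold change of -0.72 ± 0.478 that did not pass (edgeR adjusted p = 1).

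In NPCs no member passed by edgeR in any of the 3 comparisons, on backgrounds of 0.00596% for deletion over control, 0.0119% for duplication-deletion over control and 0.0238% for deletion over duplication-deletion. At an unadjusted p below 0.05 there were 5, 2 and 3 of 62 members, against 3.56%, 2.66% and 4.01% of all genes. DESeq2 called 1, 1 and 0 members at an adjusted p of 0.05, on backgrounds of 0.576%, 0.306% and 0.642%. Unc5c was the member with the smallest p. It had 21.7, 20.5 and 12.3 CPM in deletion NPCs, 52.1, 32.6 and 46.2 CPM in duplication-deletion NPCs and 80.1, 143, 60.7, 31.9 and 53 CPM in control NPCs. Deletion libraries lay below all others. The log2 fold change of deletion over control was -2.01 ± 0.432 (edgeR adjusted p = 0.326), and DESeq2 gave -2.02 with an adjusted p of 0.000991. The authors' deposited table gave Unc5c a log2 fold change of -2.02 with an adjusted p of 0.000831 in this comparison, the only member past 0.05 in its 6 comparisons of a mutant with control. The shares of all genes past it there were 0.0212% and 0.0362% in ESCs, 0.849% and 0.372% in NPCs and 0.28% and 1.18% in neurons, for deletion and duplication-deletion over control in each stage. In the same order, that deposited table listed only 37 and 34 of the 66 members in ESCs, 58 and 57 in NPCs and 62 and 62 in neurons. For deletion over duplication-deletion the log2 fold change of Unc5c was -1.25 ± 0.450 (edgeR adjusted p = 1), and for duplication-deletion over control it was -0.76 ± 0.406 (edgeR adjusted p = 1). Without the library labelled duplication-deletion replicate 2 these values were -1.11 and -0.92 (edgeR adjusted p = 0.694 and 0.928), and no member was called in any NPC comparison. Leaving out each library in turn gave edgeR adjusted p-values from 0.185 to 0.968 for deletion over control, with log2 fold changes from -2.20 to -1.63. With a replicate block the log2 fold change of Unc5c was -1.92 (edgeR adjusted p = 0.0725).

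Marker sums of other cells differed between the same NPC groups. The 6 neural crest and mesenchyme markers summed to 56.9 to 200 CPM in deletion, 363 to 413 CPM in duplication-deletion and 175 to 517 CPM in control NPCs, with 4, 5 and 4 of the 6 at a mean of at least 1 CPM. The 6 forebrain markers summed to 19.6 to 74.8 CPM in deletion, 9.73 to 15.1 CPM in duplication-deletion and 7.25 to 18.4 CPM in control NPCs. The part of either in the Unc5c values was not tested. Sema3c, a secreted class 3 semaphorin, had 67, 81.3 and 54.2 CPM in deletion NPCs, 116, 129 and 233 CPM in duplication-deletion NPCs and 43.3 to 316 CPM in control NPCs, with a log2 fold change of deletion over control of -1.17 ± 0.527 (edgeR adjusted p = 1). Epha3 had 71.2, 17.8 and 32.3 CPM in deletion and 11.2 to 33 CPM in control NPCs, which overlap. Sema3d had 39.9, 35.4 and 19.8 CPM in deletion and 10.2 to 28.9 CPM in control NPCs, which overlap as well. Libraries did not overlap for 4 of 62 members between deletion and control (background 3.12%), for none between duplication-deletion and control (2.34%) and for 4 between deletion and duplication-deletion (6.72%).

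Epha6 was near the limit of detection. It held 20 counts over the 3 deletion libraries and 83 over the 3 duplication-deletion libraries of NPCs, against 0 over the 5 controls, at least 14.1-fold and 43.6-fold higher by the floor of 3 counts over the control group. In CPM it was at 0.207, 0.0597 and 0.191 in deletion and 0.579, 0.84 and 0 in duplication-deletion NPCs. Neither passed by edgeR (adjusted p = 0.92 and 0.825), and DESeq2 gave adjusted p-values of 0.264 and 0.0357. Sema6c, a transmembrane class 6 semaphorin, had 2.73, 8.03 and 29.8 CPM in duplication-deletion and 2.18 to 6.13 CPM in control NPCs, with a log2 fold change of 1.69 ± 0.614 (edgeR adjusted p = 1), and its highest value was in duplication-deletion replicate 5, a library of 19311982 counts.

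**Figure D5:**
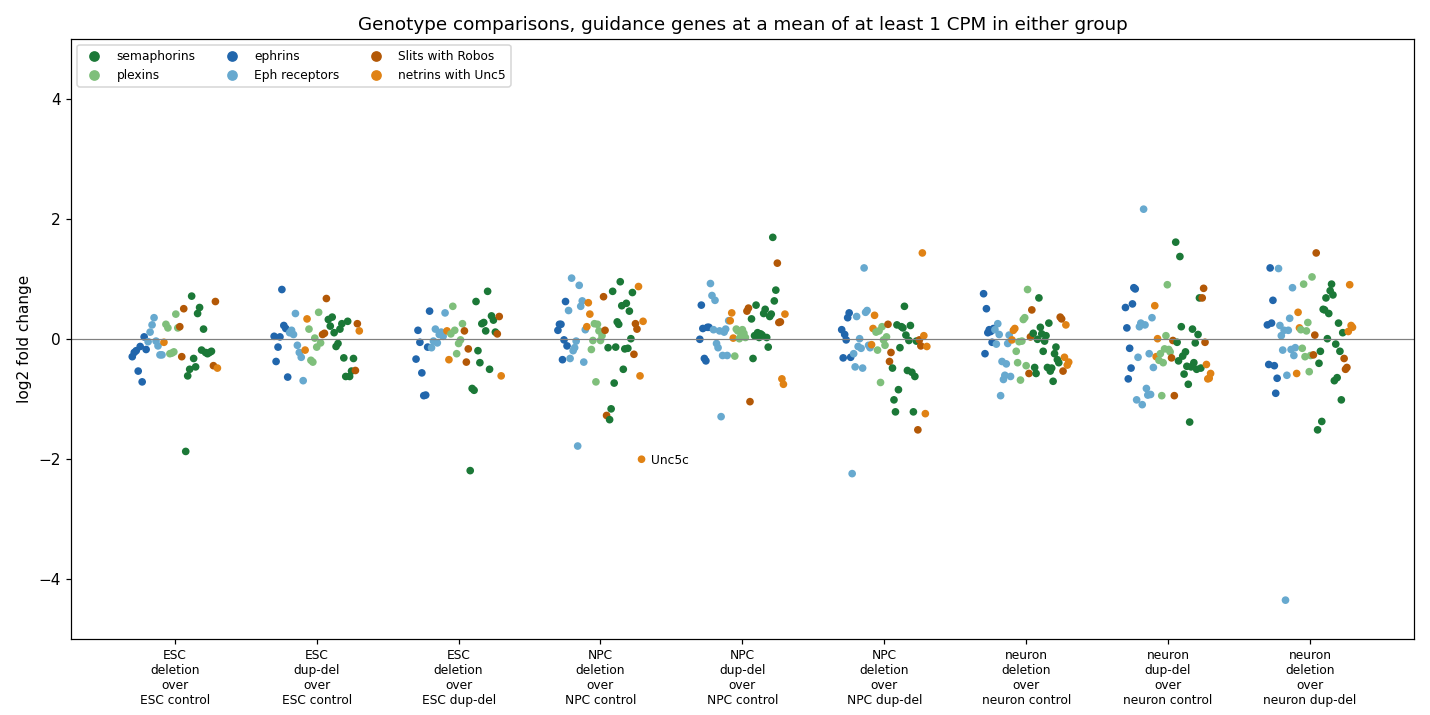
Log2 fold changes of the guidance genes in the 9 genotype comparisons, with members at a mean of at least 1 CPM in either group as points, coloured by family. None passed an edgeR adjusted p of 0.05; Unc5c lies at -2.01 in deletion over control NPCs, and the point at -4.36 in neurons is Epha6.

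Neurons had 2 deletion libraries (replicates 1 and 3), 2 duplication-deletion libraries (replicates 2 and 4) and 4 control libraries (replicates 1 to 4). The 2 mutant groups shared no replicate number, so genotype and replicate cannot be told apart by comparing their libraries alone. Deviations of same-numbered mutant and control neuron libraries had correlations of 0.0703 to 0.483. No member passed by edgeR in any of the 3 neuron comparisons. The backgrounds were 0% for deletion over control, 0.039% for duplication-deletion over control and 0.0335% for deletion over duplication-deletion. At an unadjusted p below 0.05 there were 2, 3 and 4 of 64 members, against 3.63%, 7.22% and 8.85% of all genes, and DESeq2 called 0, 0 and 1, on backgrounds of 0.368%, 0.883% and 1.55%. Epha5 was lowest in the mutants, at 27.7 and 23.9 CPM in deletion neurons, 33.7 and 13.9 CPM in duplication-deletion neurons and 40.5, 58.7, 54.7 and 47.5 CPM in control neurons. No mutant library reached the controls, and the log2 fold changes were -0.95 ± 0.375 for deletion over control and -1.10 ± 0.377 for duplication-deletion over control, neither past the threshold (edgeR adjusted p = 1 and 0.652). The same controls enter both. The 7 neuron markers summed to 1350 to 1460 CPM in deletion, 1020 to 1890 CPM in duplication-deletion and 1230 to 2030 CPM in control neurons, which overlap. The 8 ventral midbrain progenitor markers summed to 263 to 390 CPM in deletion, 469 to 585 CPM in duplication-deletion and 234 to 413 CPM in control neurons, and the 7 endothelial markers to 4.56 to 5.28 CPM, 28.7 to 53.7 CPM and 4.89 to 19 CPM in the same groups, so that for both lists duplication-deletion neurons lay above the controls. The part of these lists and of the dopaminergic markers in the neuron values of Epha5 and the other members was not tested. Plxnd1, which binds Sema3e, had 25.3 and 29.5 CPM in deletion, 12.8 and 14.5 CPM in duplication-deletion and 11.8 to 21.6 CPM in control neurons. Its log2 fold change was 0.82 ± 0.291 for deletion over control and 1.03 ± 0.349 for deletion over duplication-deletion (edgeR adjusted p = 1 and 0.508).

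The remaining neuron values named by rule did not pass either. Efna3 had 18.3 and 14.3 CPM in deletion neurons and 8.61 and 6.1 CPM in duplication-deletion neurons, a log2 fold change of 1.18 ± 0.368 (edgeR adjusted p = 0.481). Sema6d had 104 and 60.6 CPM in deletion and 121 and 220 CPM in duplication-deletion neurons, a log2 fold change of -1.02 ± 0.408 (edgeR adjusted p = 0.535). Epha6 had 0 and 0.117 CPM in deletion, 1.48 and 1.11 CPM in duplication-deletion and 0.16 to 0.516 CPM in control neurons. Its adjusted p for deletion over duplication-deletion was 0.508 by edgeR and 0.0403 by DESeq2. Sema3a had 6.05 and 22.8 CPM in duplication-deletion replicates 2 and 4 and 3.12, 3.21, 3.38 and 8.93 CPM in control replicates 1 to 4. Ephb1 had 18.5 and 11.3 CPM in these duplication-deletion neurons and 32, 35.9, 29.4 and 16.2 CPM in these controls. In both groups replicate 4 was thus highest for Sema3a and lowest for Ephb1. Libraries did not overlap for 7 of 64 members between deletion and control (background 9.93%), for 3 between duplication-deletion and control (19%) and for 18 between deletion and duplication-deletion (39.8%).

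Whether a genotype effect differed between stages was tested as an interaction over all 28 libraries with all 66 members. No member passed by edgeR in any of the 4 interactions, on backgrounds of 0.005% of 19996 genes for each of the first 3 and 0% for the last, and DESeq2 called none, on backgrounds of 0.175%, 0.0341%, 0.168% and 0.156%. At an unadjusted p below 0.05 there were 1 member for the deletion effect in NPCs minus that in ESCs (background 3.22%), 2 for the deletion effect in neurons minus that in NPCs (3.1%), 2 for the duplication-deletion effect in NPCs minus that in ESCs (2.67%) and 2 for the duplication-deletion effect in neurons minus that in NPCs (5.02%). For Unc5c the deletion effect in NPCs minus that in ESCs was -3.11 ± 0.961 on the log2 scale (edgeR adjusted p = 0.976), with 0.78, 1.28 and 0 CPM in deletion and 0.62, 0.408 and 0.0868 CPM in control ESCs. For Robo1 the deletion effect in neurons minus that in NPCs was -1.29 ± 0.564 (edgeR adjusted p = 1). For Efnb1 the duplication-deletion effect in neurons minus that in NPCs was 0.96 ± 0.397 (edgeR adjusted p = 0.962). In the lists of co-receptors, other cues and effectors no gene passed in any genotype comparison or interaction. None of the 7qF3 interval genes used to check the genotype passed by edgeR in them either. Their median log2 fold change for deletion over control was -1.24 in ESCs, -0.84 in NPCs and -0.92 in neurons. The lack of calls among members thus does not exclude changes of that size.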

How the data were processed

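RNA was sequenced from 28 libraries with a stranded total RNA kit and paired reads of 75 bases, per the labels' protocols. The authors deposited expected counts per gene after alignment by STAR 2.6.0c to mm9 and quantification by RSEM 1.3.0, and a table of log2 fold changes and p-values computed by DESeq2 1.22.2. These tools are listed per the submitters' processing notes. Whether strand was used in counting is not given in the sources used here. RSEM shares ambiguous reads out by estimate, and 12 of the 66 guidance genes had values that were not whole in some libraries (tolerance 0.015).

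From the deposited expected counts, rounded to whole numbers, 92 spike-in rows were left out. Genes were filtered by group and tested with edgeR 4.0.16 (R 4.3.3, TMM scaling, robust quasi-likelihood test, two-sided) over all genes, with Benjamini-Hochberg adjustment and a threshold of 0.05. Each stage had 1 model for its 3 genotypes, the controls of the 3 stages had another, and interactions were fitted over all 28 libraries. An SE is the absolute log2 fold change divided by the square root of F. Where a group held 0 counts, a fold is a bound against 3 counts over that group; intervals and bounds cover counting error only. The scripts were tested on simulated data. Alternatives were DESeq2 1.42.0, RLE scaling, no filter, a replicate block, leaving out shallow libraries and leaving out each library. The 66 members were set by gene symbol, whereas the rule for naming members and the gene lists were drawn up with earlier results of these data known. Named between stages were up to 3 members per family and direction with the largest change that passed, with a mean of at least 5 CPM in either group and no overlap; between genotypes, the 4 with the smallest p. In each pathway list the 3 with the smallest p that passed were eligible. Others are said to be outside this rule or were given to show other values.

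Same-numbered libraries deviated together in ESCs (9 of 9 pairs, correlations of 0.178 to 0.59), so the numbers pair the ESC libraries. The main tests did not use this pairing, which enters only in the alternative with a replicate block. In NPCs 5 of 7 pairs and in neurons 3 of 4 exceeded 0.1. Spike-ins made up 0.732%, 0.738% and 1.8% of counts in replicate 1 of deletion, duplication-deletion and control ESCs, and at most 2.18e-06% in other ESC libraries. Replicates 5 were the shallowest NPC libraries, at 24053970, 19311982 and 23561794 counts in the same order. The NPC mutants shared only number 5, with deletion replicates 1, 3 and 5 and duplication-deletion replicates 2, 4 and 5. None of 33 replicate pairs held identical values. Hi-C samples were not analysed here.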

Additional observations from a re-analysis of the deposited data

Results flagged for a closer look

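Of 92 sets examined, each the values of 1 member in a control group of 4 or 5 libraries, 12 held a library far from the rest. The sets share the same libraries and are not independent, so this count cannot be compared with a chance rate. NPC control replicate 4 was such a library for 8 members. It had 600 CPM of Slit2, with the other 4 NPC controls at 107 to 142 CPM, and 88.9 CPM of Slit1, with the others at 9.79 to 22.6 CPM. Its Ntn1 level was 670 CPM, with the others at 141 to 232 CPM. Among Unc5 receptors it had 1.99 CPM of Unc5a, with the others at 0.475 to 0.772 CPM, and 10.7 CPM of Unc5d, with the others at 1.01 to 1.86 CPM. It also had 93.9 CPM of Efnb3 (others 21.3 to 37.7 CPM), 13.1 CPM of Ephb1 (others 6.15 to 7.73 CPM) and 85.8 CPM of Plxna2 (others 42.5 to 54.5 CPM). NPC control replicate 1 had 16.4 CPM of Epha5, with the others at 2.24 to 5.49 CPM. Neuron control replicate 4 had 3.22 CPM of Plxnb3 (others 1.44 to 1.64 CPM) and 8.93 CPM of Sema3a (others 3.12 to 3.38 CPM), and it was low in Robo1, at 100 CPM (others 182 to 194 CPM). Neuron duplication-deletion replicate 4 differed from replicate 2 in the same directions. It had 5.44 against 1.91 CPM of Plxnb3, 22.8 against 6.05 CPM of Sema3a and 99.9 against 171 CPM of Robo1.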

How the results depend on the processing

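The 40 named stage results of control cells kept their direction and their side of the threshold under DESeq2, RLE scaling, no filter, the replicate block, the fit without shallow libraries and each fit without 1 library. The number of members called between NPCs and ESCs ran from 43 to 48 when 1 library was left out, and between neurons and NPCs from 33 to 39. With the replicate block it was 45 and 33. No member was called between genotypes or as an interaction with the block, and leaving out 1 library gave 0 to 0. DESeq2 called 1 member in deletion over control NPCs (Unc5c), 1 in duplication-deletion over control NPCs (Epha6) and 1 in deletion over duplication-deletion neurons (Epha6); the cause was not tested. The duplication-deletion interaction of Plxnb3 between neurons and NPCs, -2.81, ran from -3.73 to 0.92 when 1 library was left out, the last without NPC duplication-deletion replicate 4; the cause was not tested. Without both NPC replicates 4, a choice made after seeing the data, no member was called in NPCs, and Unc5c had an edgeR adjusted p of 0.2.

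Counts over all genes depended more on the tool. Where edgeR called 0, 0 and 0 genes in ESCs, 1, 2 and 4 in NPCs and 0, 7 and 6 in neurons (deletion over control, duplication-deletion over control, deletion over duplication-deletion), DESeq2 called 6, 3 and 15, then 102, 53 and 106, then 68, 163 and 266. For the 4 interactions edgeR called 1, 1, 1 and 0, and DESeq2 37, 8, 31 and 33. The replicate block gave 9, 7 and 13 genes in ESCs, 11, 2 and 2 in NPCs, 13, 40 and 21 in neurons, and 4, 1, 0 and 1 for the interactions. Leaving out 1 library gave 0 to 17 genes for deletion over duplication-deletion neurons and 0 to 40 for the deletion interaction between neurons and NPCs, both highest without neuron deletion replicate 3. It gave 0 to 8 for duplication-deletion over control neurons, and in NPCs 0 to 3, 1 to 3 and 0 to 8. With no filter, neurons gave 14 for duplication-deletion over control and 26 for deletion over duplication-deletion. Low counts limit Epha6 and Plxnb3, and neurons have 2 libraries per mutant genotype.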
